A study of Homo sapiens with 5 samples.

Results

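The nuclear-encoded subunits of the respiratory chain were compared between 501Mel, a human melanoma cell line, and Hermes 3A, a line of immortalised but untransformed human melanocytes. Subunits were taken as the protein-coding genes of GENCODE 29 whose symbols are those of complex I (NDUFA, NDUFB, NDUFC, NDUFS and NDUFV with a number), complex II (SDHA to SDHD), complex III (UQCR genes and CYC1) and complex IV (COX4I, COX5, COX6, COX7 and COX8 genes). This rule gave 68 genes, of which 66 were listed for both lines and 62 passed the filter on low counts, among 31029 genes listed for both lines and 17975 tested. It uses names only and no measured value. It leaves out NDUFAB1, the acyl carrier protein of complex I, and NDUFA4L2, which are given separately.

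All 5 libraries came from cells infected with lentivirus expressing shBPTF, an shRNA against the largest subunit of the chromatin-remodelling complex NURF, and selected with puromycin at 3 µg/ml for 5 days. There were 2 libraries of 501Mel shBPTF, grown in medium with serum, and 3 of Hermes 3A shBPTF, grown in the same medium with the phorbol ester TPA, cholera toxin, stem cell factor and endothelin-1 added. Libraries were made from total RNA depleted of ribosomal RNA and treated with duplex-specific nuclease, which lowers abundant sequences. No shControl libraries were analysed here, so each difference below is a difference between the lines, and the lines, their media and their response to shBPTF cannot be told apart. The labels do not say which of the study's shBPTF constructs was used, or whether the libraries of a line came from separate infections, so that p-values measure the spread between these libraries.

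The respiratory chain sits in the inner mitochondrial membrane. Complex I takes electrons from NADH and complex II from succinate, complex III passes them from ubiquinol to cytochrome c, and complex IV passes them to oxygen, while complexes I, III and IV move protons across the membrane. The catalytic core of complexes I and III is shared between subunits encoded in mitochondrial DNA and subunits encoded in the nucleus. Most of their nuclear genes encode accessory subunits around it. In complex IV the nuclear genes taken here encode accessory subunits or paralogs of these. Complex II is encoded in the nucleus alone. Many of these nuclear genes have binding sites for NRF1, ETS family factors such as GABPA, YY1 and ESRRA near their start sites, and PPARGC1A is a known coactivator of this programme in melanocytic cells.

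Total counts were between 30073071 and 43032311 per library, so that 3 counts on a gene came to between 0.0697 and 0.0998 CPM, which covers counting error only. BPTF itself was at 63.7 and 57.1 CPM in 501Mel and at 48.7, 50.9 and 54.9 CPM in Hermes 3A, and without control libraries its knockdown could not be checked. Melanocyte lineage markers were present in both lines, with MITF at 762 CPM ± 116 (SD, n = 2) and 679 CPM ± 13.3 (SD, n = 3), but 5 of the 9 were lower in 501Mel and 2 higher, from PMEL (log2 fold change -1.39) to DCT (6.87), and their sum was 12626 and 19730 CPM in 501Mel and 34954, 31915 and 32264 CPM in Hermes 3A. The summed keratinocyte markers did not pass 0.614 CPM in any library. The summed fibroblast markers were at 17.1 and 4.17 CPM in 501Mel and at 83.4, 180 and 192 CPM in Hermes 3A, nearly all of the latter from COL1A2, with LUM and COL1A1 each under 10 CPM and DCN under 1 CPM in every library. The part of these markers in the results was not tested. The gene tables of the lines were not made with the same gene set: 6230 genes were listed for 501Mel only and 3004 for Hermes 3A only.

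Promoter sequence gave a feature of the subunits that the rule did not use. RefSeq promoters on GRCh38.p14, from 250 bases before to 50 bases after the annotated start, were found for 55 of the 68 genes. The following 4 are shown because they hold the motifs searched, 3 of them before genes that were lower in 501Mel (NDUFS7, UQCRC1 and COX8A) and the last before a gene that was not called (SDHD). Capitals mark motif matches on either strand, and each sequence is written from 5′ to 3′ on the strand of its gene. NDUFS7 lies on the plus strand (chr19:1383657-1383956), UQCRC1 on the minus strand (chr3:48609597-48609896), and COX8A (chr11:63974370-63974669) and SDHD (chr11:112086623-112086922) on the plus strand.
NDUFS7: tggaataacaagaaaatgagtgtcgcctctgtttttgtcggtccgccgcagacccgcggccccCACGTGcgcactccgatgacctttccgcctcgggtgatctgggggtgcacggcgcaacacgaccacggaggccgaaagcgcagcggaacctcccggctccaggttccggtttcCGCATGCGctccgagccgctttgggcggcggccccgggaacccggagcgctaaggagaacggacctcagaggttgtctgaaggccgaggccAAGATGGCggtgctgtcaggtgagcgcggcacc
UQCRC1: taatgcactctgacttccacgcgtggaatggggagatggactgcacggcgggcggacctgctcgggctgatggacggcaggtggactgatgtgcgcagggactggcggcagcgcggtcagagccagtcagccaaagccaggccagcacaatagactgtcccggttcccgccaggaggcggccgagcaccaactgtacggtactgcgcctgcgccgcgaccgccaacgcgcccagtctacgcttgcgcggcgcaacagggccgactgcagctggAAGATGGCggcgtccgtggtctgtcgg
COX8A: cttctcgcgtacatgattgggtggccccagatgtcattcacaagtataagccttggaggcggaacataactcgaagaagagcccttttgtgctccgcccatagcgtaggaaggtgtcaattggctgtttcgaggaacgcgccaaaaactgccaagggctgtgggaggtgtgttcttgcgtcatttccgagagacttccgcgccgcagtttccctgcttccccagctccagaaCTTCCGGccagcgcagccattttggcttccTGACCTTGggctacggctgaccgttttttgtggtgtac
SDHD: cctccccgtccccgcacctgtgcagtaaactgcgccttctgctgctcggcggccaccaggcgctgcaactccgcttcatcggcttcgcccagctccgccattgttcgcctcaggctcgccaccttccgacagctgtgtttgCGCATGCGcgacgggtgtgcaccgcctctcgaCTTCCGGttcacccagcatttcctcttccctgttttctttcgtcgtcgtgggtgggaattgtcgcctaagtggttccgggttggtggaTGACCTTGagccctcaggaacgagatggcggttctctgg
In NDUFS7 the capitals are, in order, the E-box CACGTG, the NRF1 core CGCATGCG and the YY1 motif AAGATGGC. UQCRC1 holds the YY1 motif 23 bases after its start. In COX8A the ETS motif CCGGAAG and the ESRRA motif CAAGGTCA are both met on the opposite strand, and SDHD holds the NRF1 core and the same ETS and ESRRA motifs on the opposite strand.

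The NRF1 core was found in 10.9% of the 55 subunit promoters against 2.19% of all 27305 promoters of the same length and 2.89% of the 14896 before protein-coding genes. The YY1 motif was found in 14.5% against 3.03% and 3.99%, the ETS motif in 27.3% against 10.7% and 14.4%, and the ESRRA motif in 5.45% against 1.33% and 1.01%. Thus 26 of the 55 held at least 1 of these 4 motifs. The E-boxes CACGTG and CATGTG, which include the sites bound by MITF, were found in 7.27% and 9.09% of subunit promoters, against 7.43% and 11.2% of all promoters and 8.94% and 8.32% of those before protein-coding genes. By direction of the difference described below, the YY1 motif was in 5 of 21 promoters of genes lower in 501Mel and in 0 of 5 of genes higher, and the ETS motif in 6 of 21 and 4 of 5. These shares are descriptions of letters in a window, with no test, and the promoters of NDUFS8 and UQCRFS1, among the genes with the strongest differences, held none of the motifs searched.

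More subunit genes were lower in 501Mel than were higher. Of the 62 tested, 25 (40.3%) were lower in 501Mel at an adjusted p of 0.05 (edgeR's quasi-likelihood test with Benjamini-Hochberg adjustment over all genes), where 24.1% of all genes tested were lower. Only 7 (11.3%) were higher, where 24.2% of all genes were higher, and 30 were not called. With a 2-fold difference also required, 5 of the 62 were lower and 3 higher. Both shares were smaller than the 17.0% and 17.1% of all genes, so that at this limit lower subunits were not in excess. The median log2 fold change, 501Mel minus Hermes 3A, was -0.33 over the subunits, -0.07 over all 13868 protein-coding genes tested and 0.02 over all genes tested.
The differences were small. The 25 lower genes were between 1.36-fold and 2.48-fold lower in 501Mel, and in each of them both 501Mel libraries lay below all 3 Hermes 3A libraries. Of the 30 genes not called, only 12 overlapped between the lines, and the share over all genes is not given here. Separation is thus no added support for the 25 genes called lower. The number depended on 1 library, with between 21 and 25 genes lower when a Hermes 3A library was left out and fewer without either 501Mel library. It fell most without 501Mel replicate 1, to a share of the subunits close to that of all genes called lower in the same fit. The excess of lower subunits over all genes thus rested largely on that library. When each library was left out in turn, 16 of the 32 calls held each time, 11 of them lower and 5 higher. The 11 were NDUFS8, NDUFS7, NDUFA11, NDUFA3, NDUFA1, NDUFV3, NDUFA4, NDUFA2, NDUFA10, UQCRFS1 and UQCRC1, and the 5 were UQCR11, NDUFV2, UQCRHL, UQCRH and NDUFB9.

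**Figure D1:**
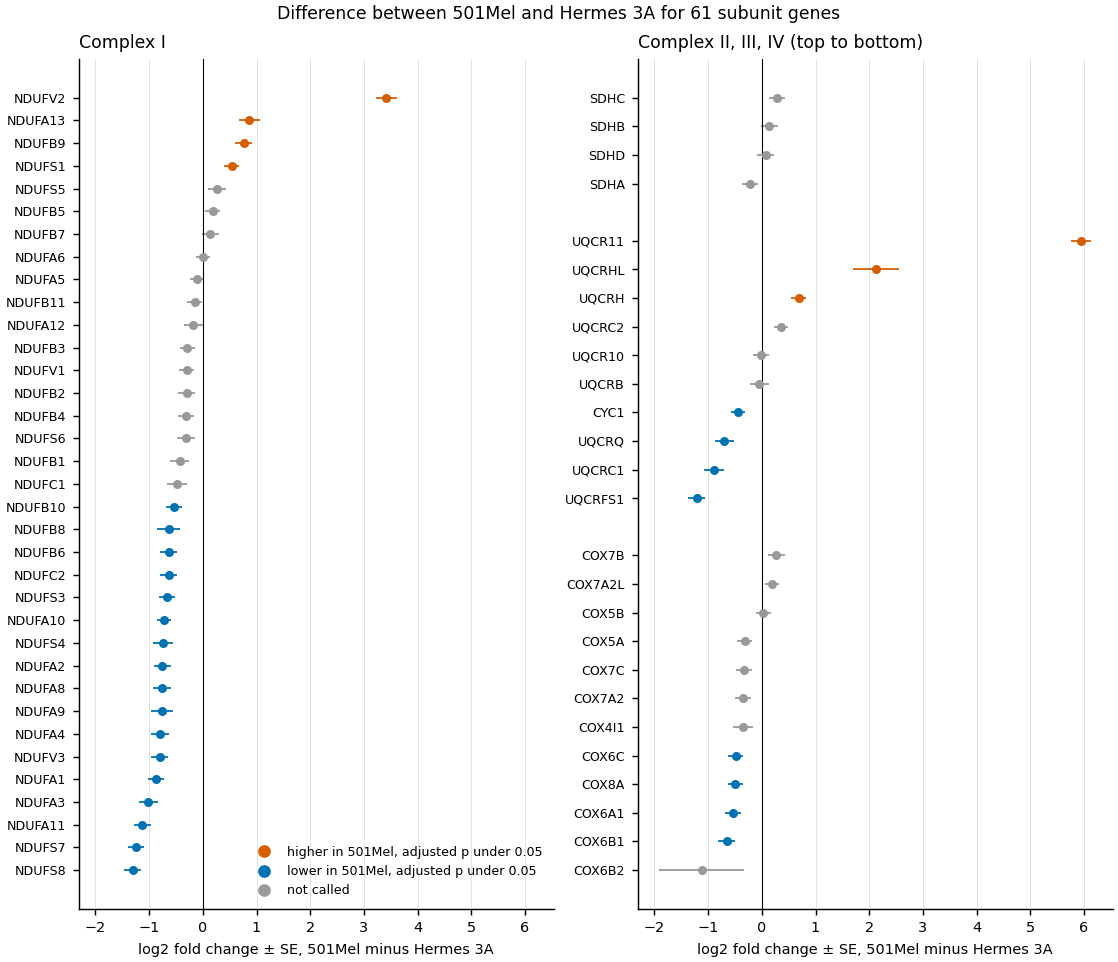
Log2 fold change with its standard error (horizontal axis, 501Mel minus Hermes 3A) of 61 tested subunit genes, with complex I on the left and complexes II, III and IV on the right. Of these genes, 25 lie left of 0 and were called lower in 501Mel, 7 lie right of 0 and were called higher, and the genes of complex II lie near 0.

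Summed over all 66 genes listed for both lines, the subunits were at 5579 and 5813 CPM in 501Mel and at 6881, 6189 and 6493 CPM in Hermes 3A. Both 501Mel libraries were below all Hermes 3A libraries, with a ratio of the means of 0.873, or 0.849 without NDUFV2 and UQCR11. By complex, the sums of complex I were 2656 CPM ± 63.2 (SD, n = 2) in 501Mel and 3111 CPM ± 177 (SD, n = 3) in Hermes 3A, and those of complex IV were 1330 CPM ± 37.0 and 1642 CPM ± 66.0, with no overlap between the lines in either. The sums of complex II, 505 CPM ± 31.2 and 496 CPM ± 22.9, and of complex III, 1204 CPM ± 33.5 and 1271 CPM ± 111, overlapped. Without UQCR11, described below, the sums of complex III were 1105 and 1152 CPM in 501Mel and 1389, 1170 and 1250 CPM in Hermes 3A and did not overlap (ratio of the means 0.889). A sum of CPM weighs abundant and long transcripts most and has no test here. In bulk RNA, less RNA per cell and fewer cells with the RNA cannot be told apart.

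**Figure D2:**
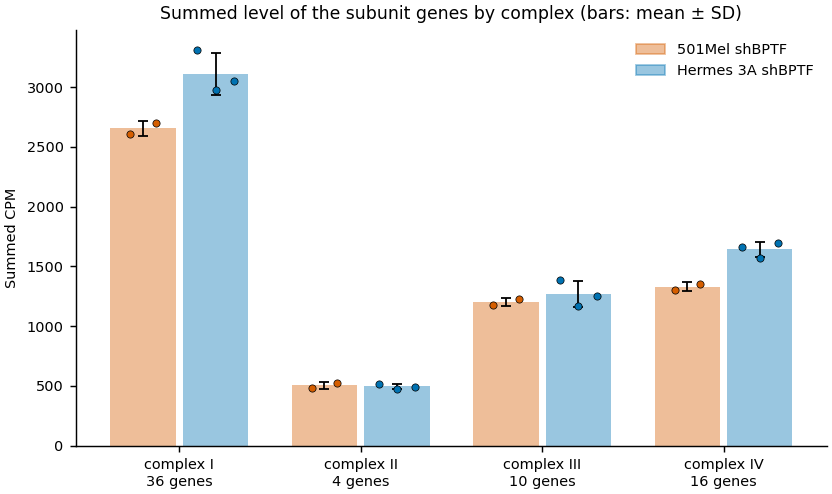
Summed CPM of the subunit genes of each complex (vertical axis, from 0) in 501Mel shBPTF and Hermes 3A shBPTF; bars are means, error bars are SD and points are the 2 and 3 libraries. The points of the lines are apart for complexes I and IV and overlap for complexes II and III, the latter with UQCR11 included.

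Complex I has more genes than the other complexes together. Of its 36 tested genes, 17 (47.2%) were lower in 501Mel and 4 (11.1%) higher, beside 24.1% and 24.2% of all genes tested. Its median log2 fold change was -0.45. The ratio of its summed CPM was 0.854, against 0.810 in complex IV. Of its 7 core subunits, which carry the flavin and the iron-sulfur clusters, 3 were lower and 2 higher. NDUFS8, which holds a pair of the iron-sulfur clusters (chromosome 11 of GRCh38, from 68030617 to 68036644), was at 37.4 and 43.5 CPM in 501Mel and at 111, 99.7 and 89.9 CPM in Hermes 3A. It was thus 2.48-fold lower in 501Mel (log2 fold change -1.31 ± 0.16 SE, adjusted p = 0.000685), with every 501Mel library below every Hermes 3A library. NDUFS7, which carries the last cluster before ubiquinone, was at 27.0 and 31.7 CPM against 65.8, 68.4 and 74.0 CPM, and was 2.37-fold lower (log2 fold change -1.24 ± 0.15 SE, adjusted p = 0.000725). NDUFS3, another core subunit, was lower by less, at 76.0 CPM ± 10.1 against 121 CPM ± 11.2 (log2 fold change -0.67, adjusted p = 0.00991), and was not called without 501Mel replicate 1.
Not all core subunits were lower or called. NDUFS1, the largest subunit of complex I, was at 277 and 271 CPM in 501Mel and at 201, 172 and 193 CPM in Hermes 3A. It was higher in 501Mel (log2 fold change 0.54 ± 0.14 SE, adjusted p = 0.0147), a call that was lost when any library other than Hermes 3A replicate 1 was left out, with log2 fold changes between 0.42 and 0.54. NDUFV1, which binds NADH and flavin, was at 163 CPM ± 11.0 and 200 CPM ± 14.7 and was not called, although its log2 fold change was also below 0 at -0.30 and its libraries did not overlap.
NDUFV2, another core subunit (chromosome 18 of GRCh38, from 9102630 to 9134345), was at 103 and 81.4 CPM in 501Mel and at 10.2, 7.83 and 7.80 CPM in Hermes 3A, so that the lines were far apart (log2 fold change 3.42 ± 0.20 SE, adjusted p = 3.24e-05). The same gene shares 771 of its 2711 annotated exonic bases in GENCODE 29, on the same strand, with AP005263.1, a gene that was listed for Hermes 3A only and had 0 counts in each of its 3 libraries. Reads that fall on bases shared by 2 listed genes can be left uncounted by a counting program, and the value of NDUFV2 in Hermes 3A is therefore uncertain. Among the 97 tested genes that share 200 or more exonic bases with a gene listed for Hermes 3A only, 15 (15.5%) had a log2 fold change of 3 or more, against 5.35% of the 17750 genes that share none. NDUFV2 itself and UQCR11, described below, are among these 15. Among genes that overlap to this extent with a gene listed for 501Mel only, 9 of 60 (15.0%) reached the same limit. Log2 fold changes as far below 0 were not counted for either group, so that these shares are a description only. The part of the gene tables in these values was not tested.

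The accessory subunits of complex I were lower in 14 of 29 tested genes (48.3%) and higher in 2 (6.90%), beside 24.1% and 24.2% of all genes tested. Of the NDUFA genes, 8 of 12 (66.7%) were lower and 1 higher. Of the NDUFB genes, 3 of 11 (27.3%) were lower, near the share of all genes, and 1 was higher. The difference between these families was not tested. NDUFA11, a membrane subunit, was at 18.6 and 21.2 CPM in 501Mel and at 44.0, 44.9 and 41.5 CPM in Hermes 3A (log2 fold change -1.13 ± 0.16 SE, adjusted p = 0.00125). NDUFA3, a small membrane subunit, was at 20.7 and 23.1 CPM against 50.9, 41.7 and 40.3 CPM (log2 fold change -1.02 ± 0.18 SE, adjusted p = 0.00307). Both genes were about 2-fold lower with no overlap between lines.
NDUFA1, encoded on chromosome X, was at 59.8 and 71.0 CPM in 501Mel and at 120, 114 and 124 CPM in Hermes 3A, and NDUFA4, now regarded as a subunit of complex IV although its name places it in complex I, was at 83.9 and 114 CPM against 179, 167 and 169 CPM. Both were lower in 501Mel, with log2 fold changes of -0.87 and -0.79. The other lower accessory subunits, NDUFV3, NDUFA9, NDUFA8, NDUFA2, NDUFS4, NDUFA10, NDUFC2, NDUFB6, NDUFB8 and NDUFB10, had log2 fold changes between -0.81 and -0.53. Of these, NDUFA8, NDUFS4, NDUFC2, NDUFB6, NDUFB8 and NDUFB10 were not called without 501Mel replicate 1, and NDUFA9, NDUFB8 and NDUFB10 were not called without 501Mel replicate 2. NDUFB10 was also lost without Hermes 3A replicate 2, and NDUFB8 without Hermes 3A replicate 1 or 3.
The 2 accessory subunits that were higher were NDUFB9 and NDUFA13. NDUFB9 was at 121 and 125 CPM in 501Mel and at 87.1, 65.3 and 65.8 CPM in Hermes 3A (log2 fold change 0.76 ± 0.17 SE, adjusted p = 0.00791). NDUFA13, also known as GRIM-19 and described as a regulator of cell death as well as a subunit, was at 25.2 and 30.0 CPM against 16.9, 15.2 and 13.3 CPM (log2 fold change 0.87 ± 0.19 SE, adjusted p = 0.00866), and was not called without 501Mel replicate 2, where its log2 fold change was 0.72. The lines did not overlap in either gene.
NDUFA7 could not be given, as its GENCODE 29 identifier was in neither table. AC010323.1, an annotated gene on the same stretch of chromosome 19, was at 26.3 and 23.4 CPM in 501Mel and at 53.7, 41.7 and 45.9 CPM in Hermes 3A (log2 fold change -0.92 ± 0.18 SE, adjusted p = 0.00443). How many of its reads belong to NDUFA7 was not tested. NDUFAB1, which the rule left out, was higher in 501Mel at 160 CPM ± 15.3 against 101 CPM ± 8.06 (log2 fold change 0.67, adjusted p = 0.00656). NDUFA4L2, a paralog of NDUFA4 known as a target of hypoxia, had between 2 and 24 counts per library and was lower in 501Mel (log2 fold change -2.94 ± 0.70 SE, adjusted p = 0.0114), a call lost without either 501Mel library.

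**Figure D3:**
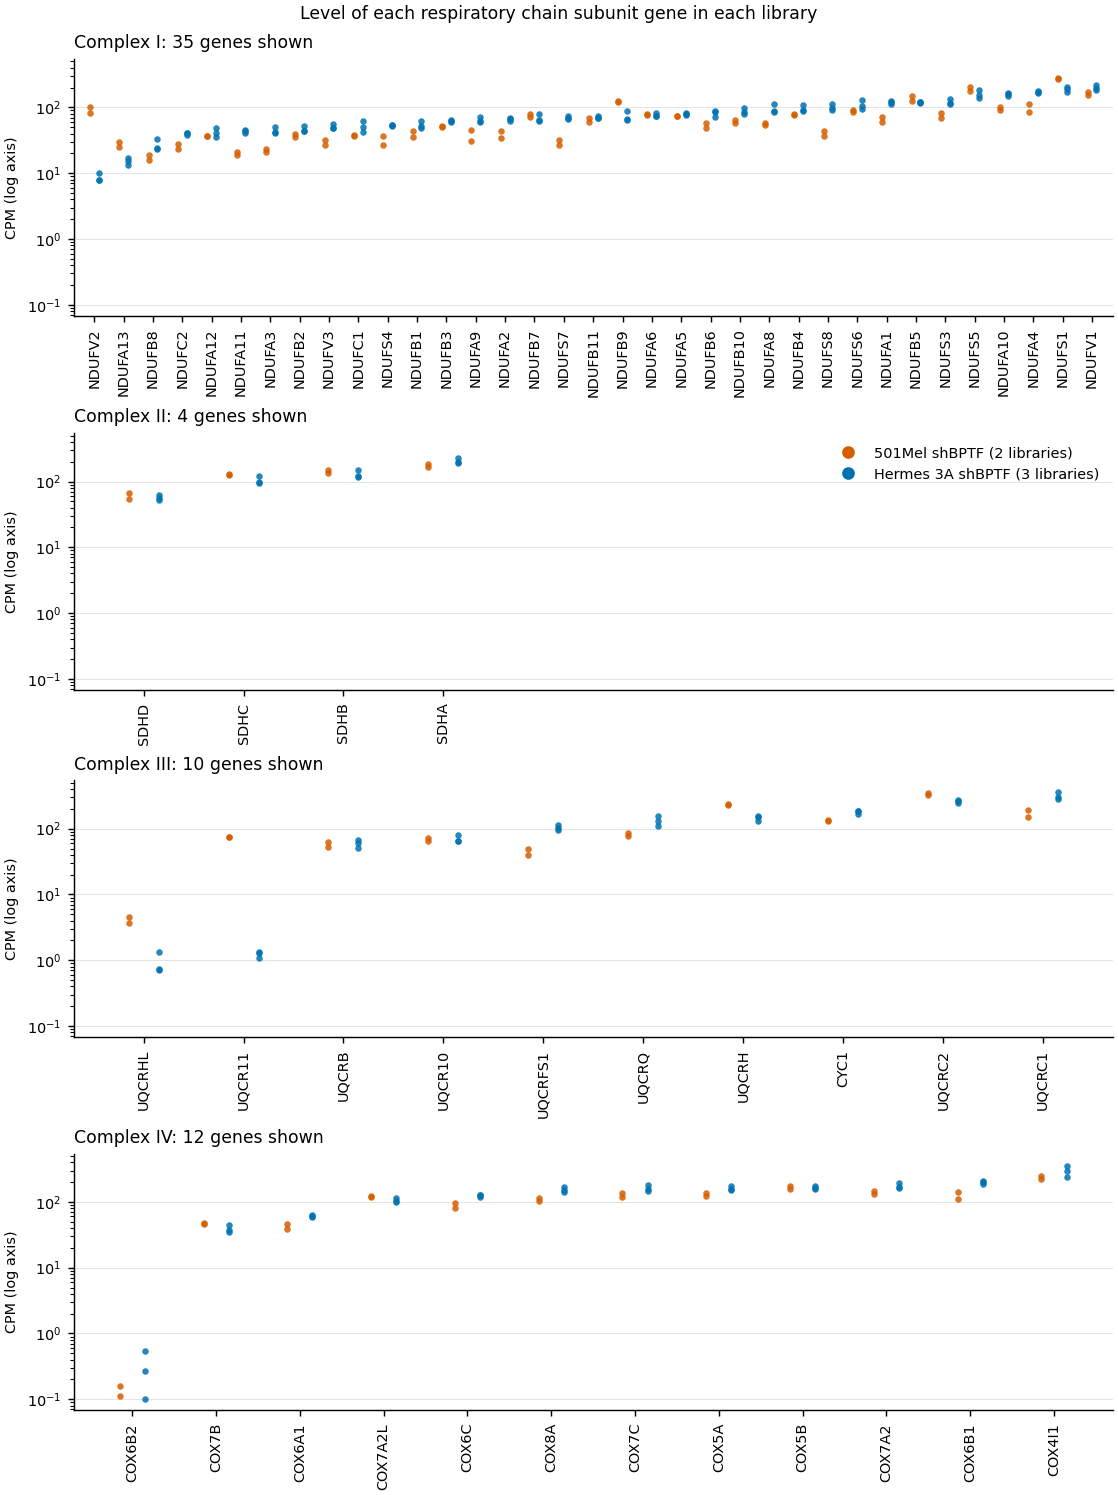
CPM on a log axis (vertical) of 61 tested subunit genes in each library, 501Mel shBPTF in orange and Hermes 3A shBPTF in blue, with the genes of each complex ordered by their mean in Hermes 3A. Most genes lie between 10 and 400 CPM in both lines, and UQCR11 and NDUFV2 are the genes whose lines lie furthest apart.

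None of the 4 genes of complex II was called by edgeR or by DESeq2, and 0 had an unadjusted p under 0.05. Of all genes tested, 24.1% were called lower and 24.2% higher. SDHA, the flavoprotein that oxidises succinate, was at 169 and 185 CPM in 501Mel and at 189, 199 and 231 CPM in Hermes 3A (log2 fold change -0.22 ± 0.15 SE, adjusted p = 0.253). SDHB, the iron-sulfur subunit, was at 133 and 148 CPM against 149, 119 and 115 CPM (log2 fold change 0.14 ± 0.16 SE, adjusted p = 0.506). The membrane anchors SDHC and SDHD had log2 fold changes of 0.29 ± 0.15 SE and 0.07 ± 0.16 SE.
The libraries of the lines overlapped for SDHB and SDHD and did not for SDHA and SDHC, the latter at 128 and 128 CPM in 501Mel and at 120, 98.8 and 95.0 CPM in Hermes 3A. SDHC was called higher without Hermes 3A replicate 1, with a log2 fold change of 0.38 and an adjusted p of 0.0355. Counts on pseudogenes named after SDHA reached 15.2% of the counts of SDHA and these pseudogenes together, the highest share of any tested subunit, so that the value of SDHA is uncertain. A p that misses the threshold does not show that these genes are equal in the lines.

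In complex III, 4 of 10 genes (40.0%) were lower in 501Mel and 3 (30.0%) higher, beside 24.1% and 24.2% of all genes tested. The 3 higher genes were UQCRH, UQCRHL and UQCR11, and limits on the values of UQCRHL and UQCR11 are given below. UQCRFS1, the Rieske iron-sulfur protein, was at 40.3 and 49.6 CPM in 501Mel and at 115, 101 and 96.1 CPM in Hermes 3A (log2 fold change -1.21 ± 0.16 SE, adjusted p = 0.00101), so that it was 2.32-fold lower. CYC1, cytochrome c1, was at 131 and 135 CPM against 188, 170 and 186 CPM (log2 fold change -0.45 ± 0.13 SE, adjusted p = 0.0254). Both catalytic subunits encoded in the nucleus were thus lower, although CYC1 was not called when either 501Mel library or Hermes 3A replicate 3 was left out, with log2 fold changes between -0.49 and -0.42.
The large core proteins differed from each other. UQCRC1 was at 150 and 191 CPM in 501Mel and at 361, 287 and 299 CPM in Hermes 3A (log2 fold change -0.89 ± 0.18 SE, adjusted p = 0.00551). UQCRC2, its partner in the complex, was at 343 and 325 CPM against 271, 242 and 268 CPM (log2 fold change 0.36 ± 0.14 SE, adjusted p = 0.0610). UQCRC1 was lower and UQCRC2 was not called, although its libraries did not overlap, and it was called higher with library totals in place of TMM scaling (log2 fold change 0.42, adjusted p = 0.0252).
Of the small subunits, UQCRQ was lower in 501Mel, at 77.5 and 86.9 CPM against 158, 111 and 130 CPM (log2 fold change -0.70 ± 0.18 SE, adjusted p = 0.0154), and was not called without 501Mel replicate 1 (log2 fold change -0.62). UQCRB and UQCR10 overlapped between lines, with log2 fold changes of -0.05 and -0.01. UQCRH, the hinge protein, was at 232 and 236 CPM in 501Mel and at 148, 132 and 156 CPM in Hermes 3A (log2 fold change 0.68 ± 0.14 SE, adjusted p = 0.00528) and was higher with no overlap. UQCRHL, an intronless copy of it on the same chromosome, had 200 and 139 counts in 501Mel and 29, 55 and 21 in Hermes 3A (log2 fold change 2.12 ± 0.42 SE, adjusted p = 0.00543). Over 516 aligned bases the transcripts of UQCRH and UQCRHL were 97.87% identical, so that reads can be placed on either, and the value of UQCRHL is uncertain.
UQCR11, the smallest subunit of complex III (chromosome 19 of GRCh38, from 1597172 to 1605490), was at 75.4 and 75.9 CPM in 501Mel and at 1.07, 1.33 and 1.28 CPM in Hermes 3A (log2 fold change 5.94 ± 0.19 SE, adjusted p = 4.39e-06). No other subunit gene differed by as much between the lines. It shares 235 of its 2151 annotated exonic bases, on the same strand, with AC005943.1, a gene listed for Hermes 3A only, which had 13, 32 and 19 counts there. The counts on UQCR11 and AC005943.1 together were 55, 87 and 57 in Hermes 3A, beside 3349 and 2907 counts on UQCR11 in 501Mel. Reads left uncounted on shared bases would be in neither gene, so that this sum cannot measure them. As for NDUFV2, the part of the gene tables in this difference was not tested, and without both genes 5 subunits were higher in 501Mel and 25 lower.

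In complex IV, 4 of 12 tested genes (33.3%) were lower in 501Mel, beside 24.1% of all genes tested. By edgeR 0 were higher (0 also by DESeq2 and at an unadjusted p of 0.05), beside 24.2% of all genes tested. The median log2 fold change was -0.35. COX6B1, which faces the intermembrane space, was at 110 and 141 CPM in 501Mel and at 209, 186 and 197 CPM in Hermes 3A (log2 fold change -0.65 ± 0.16 SE, adjusted p = 0.0122). COX6A1 was at 38.6 and 45.6 CPM against 58.1, 60.3 and 64.3 CPM (log2 fold change -0.53 ± 0.15 SE, adjusted p = 0.0207). COX8A, the smallest subunit of complex IV, was at 115 and 103 CPM against 166, 143 and 152 CPM (log2 fold change -0.49 ± 0.14 SE, adjusted p = 0.0219).
In these genes and in COX6C (log2 fold change -0.49, adjusted p = 0.0220) the libraries of the lines did not overlap, and all 4 calls were lost without 501Mel replicate 1, where COX6B1, COX6A1 and COX8A had log2 fold changes of -0.48, -0.42 and -0.58. COX6A1 and COX6C were also lost without Hermes 3A replicate 2 or 3, and COX8A without 501Mel replicate 2 or Hermes 3A replicate 3. COX4I1, the largest nuclear subunit, was at 223 and 244 CPM in 501Mel and at 240, 299 and 355 CPM in Hermes 3A (log2 fold change -0.35 ± 0.19 SE, adjusted p = 0.161), and was called lower only without Hermes 3A replicate 1 (log2 fold change -0.51, adjusted p = 0.0279). COX5A, COX7A2 and COX7C had log2 fold changes between -0.35 and -0.32 and were not called.
The highest values of complex IV were those of COX7B (log2 fold change 0.27, adjusted p = 0.204), COX7A2L, which takes part in joining complexes III and IV (0.19, adjusted p = 0.256), and COX5B (0.03, adjusted p = 0.890). None of these was called. COX5B was at 177 and 156 CPM in 501Mel and at 175, 156 and 160 CPM in Hermes 3A, and its libraries overlapped.

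Complex IV has paralogs that are restricted to heart and skeletal muscle, lung or testis, and nearly all of these had few counts. COX4I2, COX6A2, COX7A1 and COX8C had between 0 and 10 counts in every library and were not tested, and COX6B2 had between 4 and 16 counts (log2 fold change -1.12 ± 0.79 SE, adjusted p = 0.276). In each of these pairs the widely expressed paralog, COX4I1, COX6A1, COX7A2, COX8A or COX6B1, was at 38.6 CPM or more in every library. COX7B2 was the exception, with 363 and 520 counts in 501Mel, or 11.1 CPM ± 3.75 (SD, n = 2). It was not listed for Hermes 3A, so that no comparison was possible, and COX7B was at 46.4 and 47.2 CPM in 501Mel and at 44.5, 35.2 and 36.9 CPM in Hermes 3A.

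Levels between genes were compared as CPM per kb of the principal transcript. The order of the subunits was similar in the lines, with a Spearman's rho of 0.918 across 58 genes, given as a description since both lines share gene lengths and base composition. The highest gene of complex I in both lines was NDUFS5, at 350 and 292 CPM per kb, that of complex II was SDHB, at 122 and 111, that of complex III was UQCRH, at 387 and 241, and that of complex IV was COX4I1, at 326 and 416. The subunit genes of each complex therefore did not have equal levels of RNA. NDUFV3 and NDUFA9 were at 6.23 and 4.57 CPM per kb in 501Mel, and with the union of all exons as length the order changed in part, with a rho of 0.838 between the scales in 501Mel. On that scale COX4I1, at 48.7 and 62.2 CPM per kb, was no longer the highest of complex IV, where COX8A was at 216 and 303.

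The differences of the subunits were set beside those of the genes around them on GRCh38. For each gene the median log2 fold change of the tested protein-coding genes within 5 Mb was taken, other subunits left out, over 16 to 230 genes. Across 58 subunit genes Pearson's r between the log2 fold change and this median was 0.549, Spearman's rho was 0.643, and the signs were equal in 39. Neighbouring subunits share neighbours, and all points share the libraries, so that this is a description. The neighbourhood medians went from -0.56 to 1.00. Of the 25 lower genes, 23 had a neighbourhood median below 0, the others being NDUFA4 (0.54) and NDUFC2 (0.14). Of the 7 higher genes 3 had one above 0. Genes that were not called had medians on both sides of 0. The share of all subunits with a median below 0 is not given here.
By chromosome, 5 of the 9 tested subunits of chromosome 19 (55.6%) were lower and 2 (22.2%), NDUFA13 and UQCR11, higher. Over all genes tested the shares were 24.1% and 24.2%, and the shares over all genes of each chromosome are not given here. The lower genes included NDUFS7, NDUFA11, NDUFA3 and UQCRFS1, whose neighbourhood medians lay between -0.53 and -0.47. All 4 of these genes were more than 2-fold lower, and no neighbourhood median was below -0.56. That each lay below its neighbours thus follows from the choice of genes. On chromosome 11, 4 of 6 subunits (66.7%) were lower. On chromosome 1, 0 of 6 were lower by edgeR, by DESeq2 or at an unadjusted p of 0.05. The 2 higher there were UQCRH and its copy UQCRHL, whose value is uncertain. SDHA and NDUFS6, at the end of chromosome 5, lay in neighbourhoods with medians of 1.00 and 0.93 and had log2 fold changes of -0.22 and -0.32. The median difference between a subunit and its neighbourhood was -0.34. The part of chromosomal position in these values was not tested.

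The other genes of oxidative phosphorylation did not all share the direction of the nuclear subunits. Of 18 tested ATP synthase genes (complex V), 6 (33.3%) were lower in 501Mel and 2 (11.1%) higher, beside 24.1% and 24.2% of all genes tested. ATP5F1D was lowest at a log2 fold change of -0.93 and ATP5F1C highest at 0.71. The subunits encoded in mitochondrial DNA went the other way, with 10 of 13 higher, 0 lower by edgeR (0 also by DESeq2 and at an unadjusted p of 0.05) and a median log2 fold change of 0.87. Their sum was 46644 and 52197 CPM in 501Mel and 31523, 23749 and 23598 CPM in Hermes 3A, with no overlap. MT-ND2 was highest, with a log2 fold change of 1.35, and MT-ND6, the only one encoded on the light strand, was lowest at 0.08 and was not called. These RNAs are abundant, nuclease normalisation lowers abundant sequences, and its part was not tested.
Assembly factors, which build the complexes without remaining in them, had calls in both directions, as all genes tested did. For complex I 4 of 16 were higher and 3 lower, shares near the 24.2% and 24.1% of all genes tested, with FOXRED1 (log2 fold change 1.70) and COA1 (1.19) highest and NDUFAF1 (-0.91) lowest. For complex II 2 of 4 were lower, SDHAF1 (-1.81) and SDHAF4 (-1.76), although no subunit of complex II was called. For complex III 2 of 6 were higher and 1 lower, from UQCC2 (-0.73) to UQCC1 (0.82), and for complex IV 3 of 24 were higher and 3 lower, from PET100 (-0.90) to PET117 (1.34). Of 76 genes of the mitochondrial ribosome, 17 were higher and 10 lower, from MRPS36 (-1.21) to MRPL38 (2.93), with a median of 0.10. These shares, 22.4% higher and 13.2% lower, stand beside 24.2% and 24.1% of all genes tested.
Of 9 regulators of these genes, 5 (55.6%) were higher in 501Mel and 1 (11.1%) lower, beside 24.2% and 24.1% of all genes tested. PPARGC1A was at 60.0 and 92.3 CPM in 501Mel and at 10.1, 7.06 and 8.30 CPM in Hermes 3A (log2 fold change 3.16 ± 0.24 SE, adjusted p = 0.000106). TFAM, a factor in the transcription and packaging of mitochondrial DNA, was at 202 and 160 CPM against 61.4, 58.5 and 62.2 CPM (log2 fold change 1.58 ± 0.15 SE, adjusted p = 0.000213). The libraries of the lines were apart in both genes. NRF1 (0.59), PPRC1 (0.46) and GABPA (0.44) were also higher, and ESRRA was lower (-0.57, adjusted p = 0.0192).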

How the data were processed

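RNA was sequenced from 2 libraries of 501Mel shBPTF and 3 of Hermes 3A shBPTF, grouped as their labels name them. The authors deposited raw counts, integers that had not been scaled, for each Ensembl gene identifier. The submitters' processing notes name CASAVA 1.8, TopHat 1.4.1, Bowtie 0.12.7 and hg19, while the counting program, annotation release and strandedness are not given in the sources used here. Total counts were between 30073071 and 43032311.

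The 31029 genes listed for both lines were fitted with edgeR 4.0.16 in R 4.3.3 (robust quasi-likelihood test, TMM scaling, filterByExpr, cell line as the only term), with Benjamini-Hochberg adjustment over all 17975 genes tested and calls at an adjusted p of 0.05. The fit was checked on simulated data. The SE is the log2 fold change divided by the square root of the F statistic. CPM were computed from TMM-scaled totals, except for COX7B2, for which the library total was used. Members were matched by GENCODE 29 symbol. Lengths are medians of principal transcripts. Positions are those of GENCODE 29 on GRCh38, and motifs were searched on both strands of RefSeq promoters.

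The members and lists were chosen with earlier results of these data known. Named genes were all complex II genes, the 4 highest and 4 lowest log2 fold changes in complexes I, III and IV, tested members with a 2-fold difference, paralog groups, the highest gene per kb, NDUFAB1, NDUFA4L2 and BPTF. One gene is not reported here, although counts include it. Other called members were added after their values were seen. The union of exons as length, library totals, DESeq2 1.42.0, its size factors, no filter, a replicate block, added pseudogene counts, a 2-fold limit and leaving out each library were tried. Leaving out genes that overlap a gene listed for 1 line only, and sums without NDUFV2 and UQCR11, were added after the data were seen.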

Additional observations from a re-analysis of the deposited data

Results flagged for a closer look

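COX7B2, a paralog of COX7B known mainly from testis, was listed for 501Mel only and was flagged because no comparison uses it. It had 363 and 520 counts there, or 11.1 CPM ± 3.75 (SD, n = 2), above the limit of 3 counts per library, and has no value in Hermes 3A.

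AC010323.1, which lies over NDUFA7 on chromosome 19, was flagged because it is no member by the naming rule and NDUFA7 itself had no counts under its own identifier. Its mean was 24.8 CPM ± 2.07 (SD, n = 2) in 501Mel and 47.1 CPM ± 6.11 (SD, n = 3) in Hermes 3A, and the lines did not overlap.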

How the results depend on the processing

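Of 403 values of the 34 named genes under alternatives, 373 kept their direction and side of the threshold, 21 lost the call, 3 gained it and 6 changed sign. The sign changes were in genes that were not called: COX5B had log2 fold changes of -0.012 without the filter on low counts and between -0.071 and 0.10 when each library was left out, and SDHD between -0.085 and 0.20 when each library was left out. With a 2-fold difference also required, 3 subunits were higher and 5 lower in place of 7 and 25. Leaving out each library in turn gave between 5 and 8 subunits higher and between 12 and 25 lower, the 12 without 501Mel replicate 1. Over all genes it gave between 2861 and 4613 genes higher and between 3183 and 4707 lower, in place of 4346 and 4323. With 1 library of 501Mel left, that library is assumed to vary like those of Hermes 3A. The summed CPM of 501Mel moved from 5696 to 5528 without NDUFV2 and UQCR11, and the sums of CPM per kb moved from 5505 to 2908 in 501Mel and from 6364 to 3393 in Hermes 3A with the union of exons as length.

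With DESeq2's size factors, DESeq2's own test and added pseudogene counts all 32 calls were kept. Library totals lost NDUFB8 and gained UQCRC2, and no filter on low counts gained NDUFC1. Without genes that overlap a gene listed for 1 line only, the 30 calls that could be fitted were kept. The lines share only the replicate numbers 1 and 2, and the deviations of same-numbered libraries correlated at 0.103 and 0.133. With the replicate block 22 subunits were lower and 7 higher, and 3555 genes higher and 3734 lower over the whole table; the calls of COX6A1, COX6C, COX8A and CYC1 were lost and NDUFC1 was gained. Depth limits the paralogs with 10 counts or fewer, for which a difference was not detectable.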
